A study of Rattus norvegicus with 8 samples.

Results

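The genes described here are 10 antioxidant and detoxification genes that NRF2 is known to control, Nqo1, Srxn1, Hmox1, Gclc, Gclm, Gsta1, Ptgr1, Pir, Txnrd1 and Slc7a11, out of 14217 genes that a probe set of the array names alone. They are carried by 14 probe sets of 31042 tested, 3 for Srxn1, 2 each for Gclc and Txnrd1 and 1 for each other gene, and 0 probe sets name one of them together with another gene. The members were chosen by their known role and by measured values of these arrays, chiefly U0126 over DMSO, since earlier results were in view. The rises of Nqo1, Pir and Srxn1 with U0126 over DMSO, and the high values of Nqo1 and Srxn1 in both groups given U0126, were already known, so the effect of U0126 without TNFα is given below as a description with no test.

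The cells were primary chondrocytes from the femoral condyles of Sprague Dawley rats at 1 day of age, kept without serum overnight. They received DMSO or U0126, an inhibitor of the kinases MEK1/2 upstream of ERK1/2, for 30 min, and then vehicle or recombinant human TNFα at 30 ng/ml for 24 h. The 4 treatments, called DMSO, U0126, TNFα and U0126+TNFα, were each run on 1 Affymetrix RAT230_2.0 array per experiment, and 2 independent experiments gave 8 arrays. The DMSO group received both vehicles, every group was serum starved, and no genotype was altered. U0126 was the 1 inhibitor on these arrays, so blockade of MEK1/2 and any other action of the compound cannot be told apart.

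NRF2, encoded by Nfe2l2, is a transcription factor that the adaptor KEAP1 holds at a low level by marking it for degradation. Oxidants and electrophiles modify KEAP1, NRF2 then accumulates, pairs with a small MAF protein and binds antioxidant response elements, and BACH1 competes at the same elements. Its targets make glutathione, reduce thioredoxin and peroxiredoxins, degrade haem and conjugate or reduce reactive compounds, and in cartilage they are known as part of the defence against the oxidants that inflammatory cytokines elicit. Nqo1 is also a known target of AhR, the aryl hydrocarbon receptor, which binds a different element.

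The promoters of the members were read because the genes rose together with U0126 in these arrays, which is partly how they were chosen. RefSeq's promoter table for the GRCr8 build held 9 windows for 8 of the 10 genes, with Txnrd1 in 2 of them, each running from 250 bases before to 50 bases after a start site. The antioxidant response element was searched as TGACNNNGC, and a second, related pattern, TGAGNNNGC, was added after the windows had been read. The AhR element was searched as GCGTG, AP-1 as TGANTCA, Sp1 as GGGCGG and Egr-1 as GCGNGGGCG, all on both strands. In the stretches below the match stands in capitals, in the orientation of the gene, 5′ to 3′. The first is an AhR element on the opposite strand. The second, in Srxn1, matches the added pattern TGAGNNNGC and also holds an AP-1 match, while TGACNNNGC had no match in that window. The others are antioxidant response elements on the opposite strand. The first base of the match lies at -10 from the start site in Nqo1, -5 in Srxn1, -172 in Gclm, -114 and -9 in Pir and -78 in Txnrd1. The second Pir stretch overlaps an AP-1 match as well. It also overlaps an AhR element on the opposite strand, with its first base at -2, which is not in capitals as such. Capitals mark the AhR element in the Nqo1 stretch alone, although the windows of Srxn1, Gclc, Pir and Txnrd1 also held GCGTG. The capitals therefore do not divide Nqo1 from the other genes by element.
Nqo1, minus strand, chr19:52220243-52220307: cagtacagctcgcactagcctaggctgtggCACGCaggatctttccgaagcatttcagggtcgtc
Srxn1, plus strand, chr3:161064777-161064845: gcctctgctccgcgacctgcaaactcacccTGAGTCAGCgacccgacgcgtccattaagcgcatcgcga
Gclm, plus strand, chr2:213031933-213032001: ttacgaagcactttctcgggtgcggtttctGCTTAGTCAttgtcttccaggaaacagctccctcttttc
Pir, minus strand, chrX:33851125-33851193: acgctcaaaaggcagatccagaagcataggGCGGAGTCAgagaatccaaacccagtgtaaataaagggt
Pir, minus strand, chrX:33851020-33851088: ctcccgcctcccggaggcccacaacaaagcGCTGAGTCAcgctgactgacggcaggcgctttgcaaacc
Txnrd1, minus strand, chr7:22755944-22756012: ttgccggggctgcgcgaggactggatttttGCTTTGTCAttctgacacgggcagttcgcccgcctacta

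The antioxidant response element was found in 4 of the 9 windows, those of Gclm, Gsta1, Pir and a Txnrd1 window, and in 12.1% of all 33469 windows of that length. In Gsta1 the match begins at position 30 after the start site. The added pattern TGAGNNNGC was found in 1 of the 9, that of Srxn1, at 3 positions, and in 17.2% of all windows. GCGTG was in 5 of the 9, those of Nqo1, Srxn1, Gclc, Pir and a Txnrd1 window, and in 29.7% of all. Sp1 letters were in 6 of 9 against 33.1%, AP-1 letters in 2 of 9 against 7.33% and Egr-1 letters in 1 of 9, that of Nqo1, against 4.98%. A match describes these letters in this window only.

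Levels below are summary intensities on a linear scale, brought to a common array median, with experiment 1 before experiment 2. A fold is the ratio between 2 arrays of the same experiment. Intensities of different genes depend on their probes and are not compared. In whole cultures, fewer cells of a type and less RNA per cell cannot be told apart.

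Nqo1, a quinone reductase, had the highest U0126 folds among the 10 genes. Its intensities were 4009.8 and 5011 under DMSO, 16263 and 15575 under U0126, 4162 and 3898 under TNFα, and 15552 and 14867 with U0126+TNFα. All 4 arrays given U0126 lie far above the 4 without it, and the groups do not overlap. U0126 over DMSO was 4.06-fold and 3.11-fold, and U0126+TNFα over TNFα was 3.74-fold and 3.81-fold. Of the genes that reduce quinones and other electrophilic compounds, Ptgr1, an NADPH-dependent reductase of alkenals and prostaglandin metabolites, measured 527 and 606 under DMSO, 1267 and 1643 under U0126, 1067 and 738 under TNFα, and 2042 and 1686 with both. Its U0126 arrays are above all others, although the experiment 1 array with TNFα comes close to the experiment 1 array with U0126. Gsta1, a glutathione transferase, read 4001 and 5863 under DMSO, 10139 and 10789 under U0126, 4264 and 6147 under TNFα, and 10441 and 12021 with both. Experiment 2 is the higher one in every treatment for Gsta1, and the groups with and without U0126 do not overlap. The Gsta family has near-identical members, so probes for 1 member may bind others. A probe set that names Gsta5 and Gsta2 together lay between 276 and 344 on all arrays, with U0126 folds of 0.911 and 0.923 without TNFα.

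Glutathione is made from cysteine, which enters as cystine through the transporter encoded by Slc7a11, and its first step is catalysed by glutamate-cysteine ligase, with Gclc as catalytic and Gclm as modifier subunit. Gclc was at 754 and 873 under DMSO, 1364 and 1427 under U0126, 834 and 943 under TNFα, and 1527 and 1562 with both. A second Gclc probe set read 523 and 491, 918 and 728, 514 and 520.2, and 950.1 and 986 in the same order. Both probe sets separate the arrays with U0126 from those without.
Gclm varied less, at 629.7 and 649.7 under DMSO, 768 and 926 under U0126, 676 and 736 under TNFα, and 777 and 878 with both. Its lowest U0126 array, 768, is only a little above its highest array without U0126, 736. Slc7a11 measured 852 and 585 under DMSO, 837 and 930.2 under U0126, 499.8 and 532 under TNFα, and 739.5 and 885 with both. It is the 1 gene of the 10 whose arrays with and without U0126 overlap, through the experiment 1 array with DMSO. Its U0126 folds were 0.982 and 1.59 without TNFα, and 1.48 and 1.66 with it.

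Srxn1 encodes sulfiredoxin, which restores overoxidized peroxiredoxins, and Txnrd1 encodes the cytosolic thioredoxin reductase. Srxn1 stood at 859 and 721 under DMSO, 1777 and 1398 under U0126, 736 and 658 under TNFα, and 1642 and 1458 with U0126+TNFα. A second probe set of Srxn1 read 467 and 305, 1199 and 641, 413 and 284, and 1111 and 921 in the same order, again without overlap. The remaining one, at 33.1 to 43.6 on all arrays, showed U0126 folds of 1.02 and 0.840 without TNFα and 1.01 and 1.07 with it, so the probe sets of Srxn1 disagree. Txnrd1 was at 1652 and 1745 under DMSO, 2232 and 2458 under U0126, 1970.4 and 2036 under TNFα, and 2691 in both experiments with U0126+TNFα. The steps are small and the groups do not overlap. The other Txnrd1 probe set had U0126 folds of 1.36 and 1.62 without TNFα and 1.38 and 1.74 with it, and its arrays overlap between experiments, with 1214 under U0126 in experiment 2 and 1370.3 under TNFα in experiment 1.

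Hmox1 encodes haem oxygenase 1, which degrades haem, and Pir encodes pirin, a nuclear iron-binding protein. Hmox1 read 3252 and 3148 under DMSO, 5969 and 6038 under U0126, 5479 and 3492 under TNFα, and 7683 and 6414 with both. The TNFα arrays of the 2 experiments lie far apart, with experiment 1 close to the U0126 arrays and experiment 2 close to DMSO. Pir was at 363 and 404 under DMSO, 823 and 1049.5 under U0126, 516 and 611 under TNFα, and 1003 and 1299.9 with U0126+TNFα. Its treatments follow the same order in both experiments, with DMSO lowest and U0126+TNFα highest. All 4 arrays given U0126 were above all 4 without it in 9 of the 10 genes, and in 1.53% of all probe sets, a count that includes the arrays on which the genes were chosen.

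**Figure D1:**
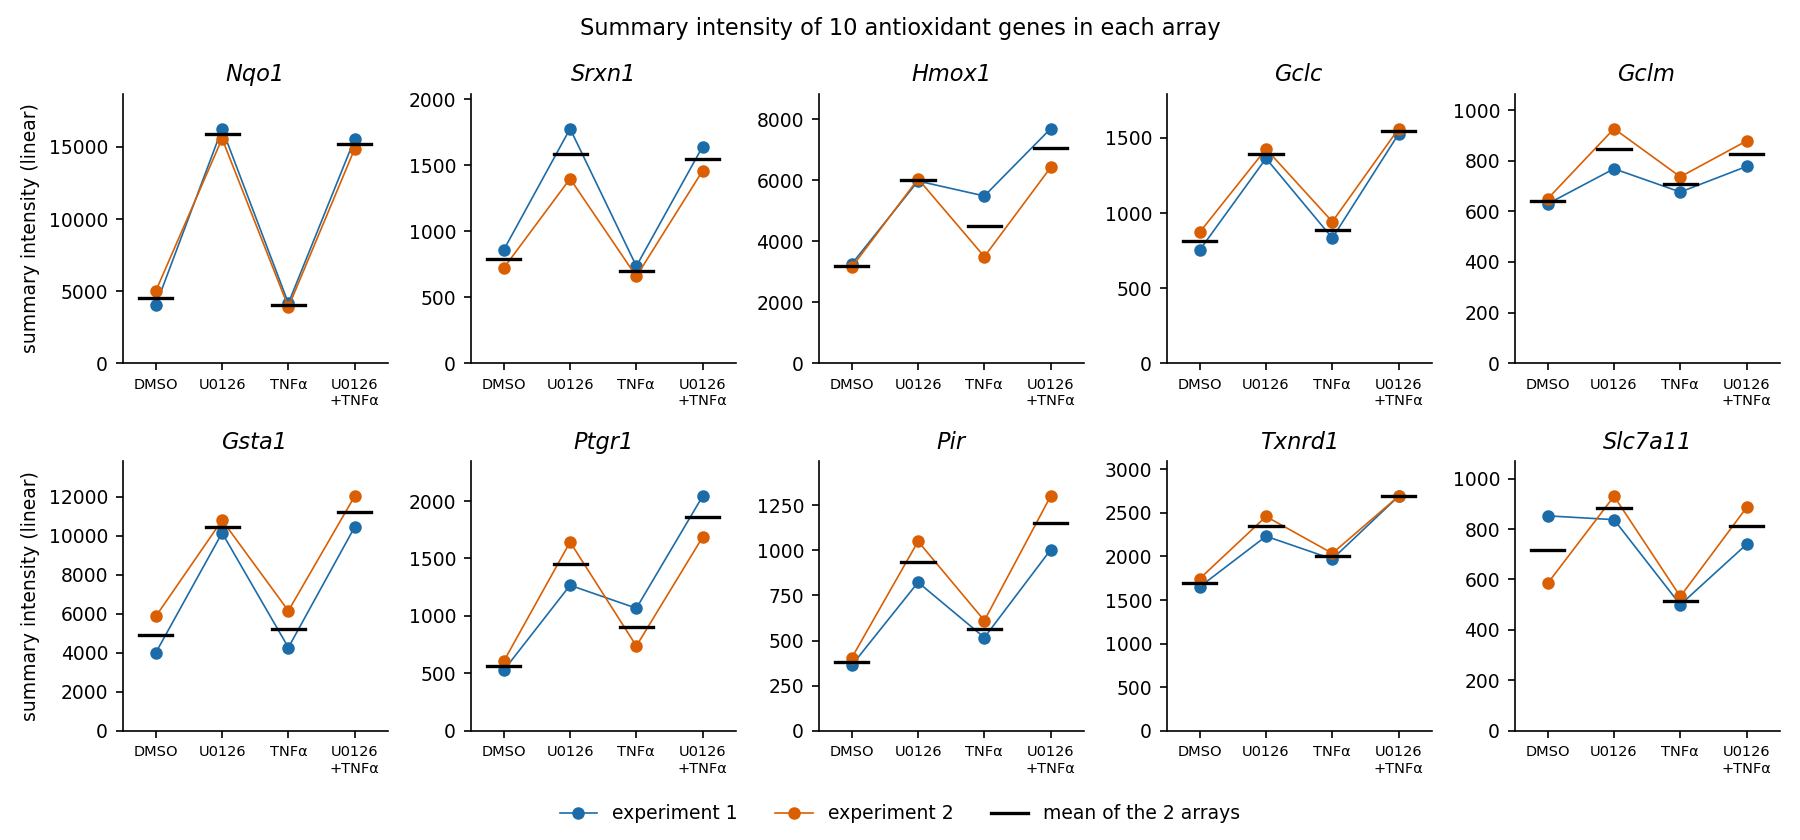
Summary intensity (linear, from 0) of each gene in the 4 treatments, with points for the arrays, lines joining the arrays of 1 experiment and bars for the mean of 2 arrays. In 9 of the 10 genes all 4 arrays given U0126 lie above all 4 others, and Slc7a11 is the exception.

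Without TNFα, the values known when the genes were listed, U0126 over DMSO averaged between 1.25-fold for Slc7a11 and 3.55-fold for Nqo1 over the 2 experiments. The means for the others were 2.55-fold for Ptgr1, 2.42-fold for Pir, 2.16-fold for Gsta1, 2.00-fold for Srxn1, 1.88-fold for Hmox1, 1.72-fold for Gclc, 1.38-fold for Txnrd1 and 1.32-fold for Gclm. The median over the 10 genes was 0.95 on the log2 scale, and over all probe sets it was 0.00. By the study's fold rule, a change of 1.45-fold or more that both experiments share in direction, 7 of the 10 were higher, where 0.18% of all probe sets were. Nothing is read from that share, since the comparison helped choose the genes. Txnrd1 (1.35-fold and 1.41-fold) lay just under the threshold in both experiments. Gclm (1.22-fold and 1.43-fold) lay just under it in experiment 2 and further below in experiment 1, and Slc7a11 reached it in experiment 2 alone.

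Whether U0126 also acted in cells given TNFα was asked by setting U0126+TNFα against TNFα, on arrays that the comparison above did not use. The limma fit took its estimate of spread from all 8 arrays, so the p-values also depend on the DMSO and U0126 arrays that helped choose the genes. For Nqo1 and Srxn1 the high values of these arrays were known when the genes were chosen, so both are described here with no test. U0126+TNFα over TNFα raised Pir, Gclc and Gsta1, 3 of the other 8 genes, and the remaining 5 were above TNFα in both experiments without passing the test. In limma, fitted on all probe sets with the experiment as a block, these 3 of the 8 passed as higher at a Benjamini-Hochberg adjusted p under 0.05. Of all probe sets, 0.129% were higher, and 0 of the 10 genes were lower. The 8 were also chosen with values of these arrays in view, chiefly those of U0126 over DMSO. These calls are therefore no independent test, and nothing is read from the shares of all probe sets in this paragraph. The fit also called Nqo1 and Srxn1, which makes 5 of the 10, but nothing is read from those 2 calls. The fold rule was met by 7 of the 10, again with Nqo1 and Srxn1 among them, where 0.258% of all probe sets met it. Compared with the setting without TNFα, Slc7a11 entered that count and Hmox1, at 1.40-fold and 1.84-fold, left it. The median log2 fold over the 10, Nqo1 and Srxn1 included, was 0.91, and over all probe sets it was 0.01.

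The log2 fold of Nqo1 was 1.92, that of Srxn1 1.15 and that of the second Srxn1 probe set 1.56. Pir rose by 1.02 on the log2 scale (limma adjusted p = 0.0110). Gclc rose by 0.80 (adjusted p = 0.0160) and its second probe set by 0.91 (adjusted p = 0.0365). Gsta1 rose by 1.13 (adjusted p = 0.0341), with a wider gap between its experiments, 2.45-fold and 1.96-fold. Each of these genes was higher in both experiments.

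The genes that did not pass had folds of 1.91 and 2.29 for Ptgr1 (limma adjusted p = 0.102), 1.37 and 1.32 for Txnrd1 (0.0695), 1.40 and 1.84 for Hmox1 (0.146), 1.48 and 1.66 for Slc7a11 (0.221) and 1.15 and 1.19 for Gclm (0.281). All 10, with Nqo1 and Srxn1 among them, had an unadjusted p under 0.05, against 12.7% of all probe sets. Nothing is read from that share either, since values of these arrays helped choose the genes. For Ptgr1 and Hmox1 the arrays with TNFα alone differed most between experiments, as a ratio. With only the 4 arrays compared in the fit, Ptgr1 (adjusted p = 0.0137) and Slc7a11 (adjusted p = 0.0346) passed as well. The 5 calls fell to 0 without either U0126+TNFα array and to 2, Nqo1 and Srxn1, without the TNFα array of experiment 1, and with no replicate block 0 of the 10 passed. Without either U0126 array Gclc was lost, and without either DMSO array Gsta1 was lost.

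**Figure D2:**
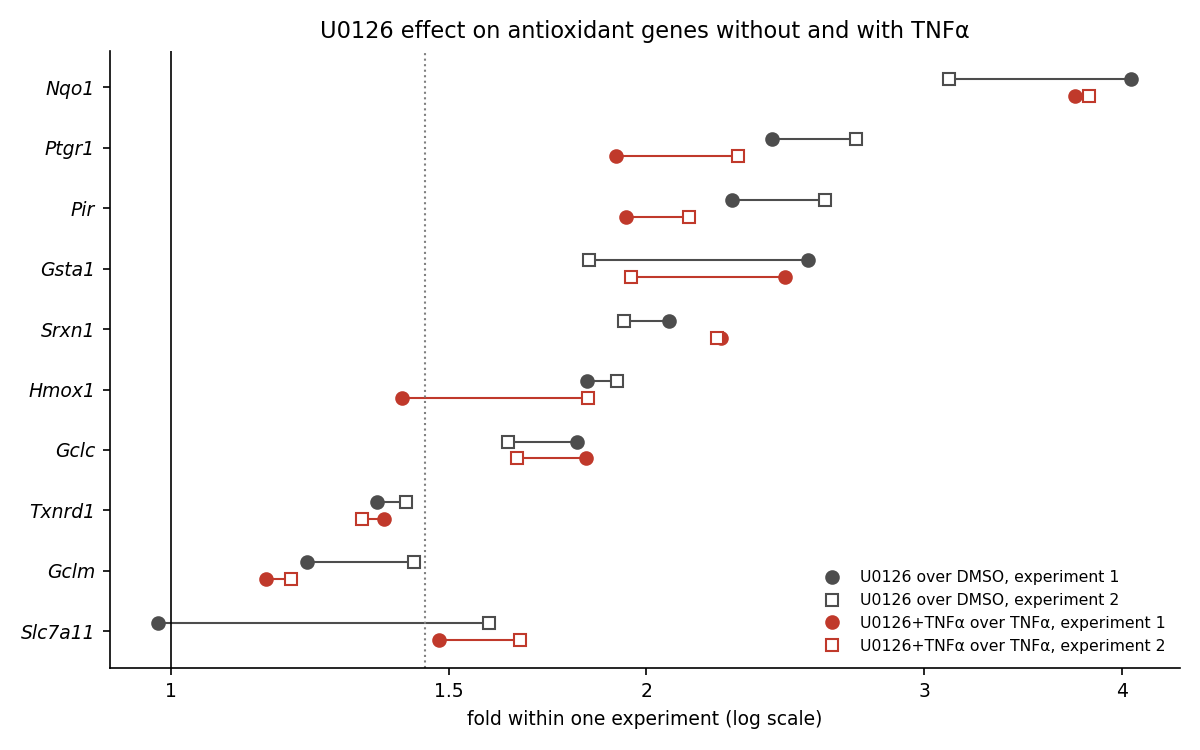
Fold of U0126 over DMSO (grey) and of U0126+TNFα over TNFα (red) within each experiment, on a log scale, with circles for experiment 1, squares for experiment 2 and a dotted line at 1.45-fold. Nqo1 lies highest, between 3.11-fold and 4.06-fold in its 4 values, and the 1 value under 1 is that of Slc7a11 in experiment 1 without TNFα.

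TNFα alone gave 1 call among these genes. TNFα over DMSO uses the DMSO arrays of the comparison that helped choose the genes. In limma, 1 of the 10 passed as higher, Pir, with a log2 fold of 0.55 and a standard error of 0.07 (adjusted p = 0.0120) from rises of 1.42-fold and 1.51-fold, where 3.41% of all probe sets were higher. None of the 10 passed as lower, where 1.78% of all probe sets were lower. An unadjusted p under 0.05 was found for 6 of the 10, a larger share than the 25.9% of all probe sets. By the fold rule 0 of the 10 changed, where 2.02% of all probe sets changed in either direction.
The median log2 fold was 0.13 over the 10 and -0.02 over all probe sets. The Pir call was lost without the TNFα array of experiment 1, without the DMSO array of experiment 2, with no replicate block and with only the arrays compared.

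Several genes differed between experiments with TNFα. Hmox1 was 1.68-fold and 1.11-fold of DMSO (limma adjusted p = 0.126), Ptgr1 2.02-fold and 1.22-fold (adjusted p = 0.110) and Slc7a11 0.586-fold and 0.910-fold (adjusted p = 0.171). Hmox1 and Ptgr1 were thus further above DMSO in experiment 1, and Slc7a11 further below it. Without the TNFα array of experiment 2, Hmox1 and Ptgr1 passed, with log2 folds of 0.73 and 0.97, and without the DMSO array of experiment 2 Slc7a11 passed at -0.81. Txnrd1 was 1.19-fold and 1.17-fold (adjusted p = 0.0810), Gclm 1.07-fold and 1.13-fold, Gclc 1.11-fold and 1.08-fold and Gsta1 1.07-fold and 1.05-fold. Nqo1 (1.04-fold and 0.778-fold) and Srxn1 (0.856-fold and 0.912-fold) had means below DMSO, and neither passed. The sign for Nqo1 turned without the DMSO array of experiment 2, and that for Gsta1 under 3 alternatives, quantile normalization among them.

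In the presence of U0126, adding TNFα gave no call. U0126+TNFα over U0126, which shares the U0126 arrays, had 0 of the 10 past the limma threshold, where 0.831% of all probe sets were higher, and 2 of the 10, Pir and Txnrd1, had an unadjusted p under 0.05, as had 12.5% of all probe sets. The fold rule gave 0 of the 10, where 1.21% of all probe sets changed. Pir was 1.22-fold and 1.24-fold (adjusted p = 0.150), Ptgr1 1.61-fold and 1.03-fold, Hmox1 1.29-fold and 1.06-fold, and Nqo1 0.956-fold and 0.955-fold. The median log2 fold over the 10 was 0.12, and over all probe sets it was -0.01.

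The difference of the U0126 effects, with TNFα minus without, was tested in the same fit, which uses all arrays. It was past the threshold for 0 of the 10 genes, and for 0% of all probe sets, and limma gave an unadjusted p under 0.05 for 1 of the 10 and for 2833 of all probe sets. That gene was Pir, with a difference of -0.25 (95% interval -0.51 to -0.0029, adjusted p = 0.543). The differences of the 10 had a median of -0.01, with 5 above and 5 below 0, from -0.29 for Ptgr1 to 0.33 for Slc7a11. The width of the intervals differed between genes. For Nqo1 the interval ran from -0.28 to 0.45, for Gclc from -0.22 to 0.26 and for Srxn1 from -0.08 to 0.39. For Ptgr1 it ran from -0.97 to 0.39 and for Slc7a11 from -0.27 to 0.93, so that a large change of either effect with TNFα was not detectable for them.

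**Figure D3:**
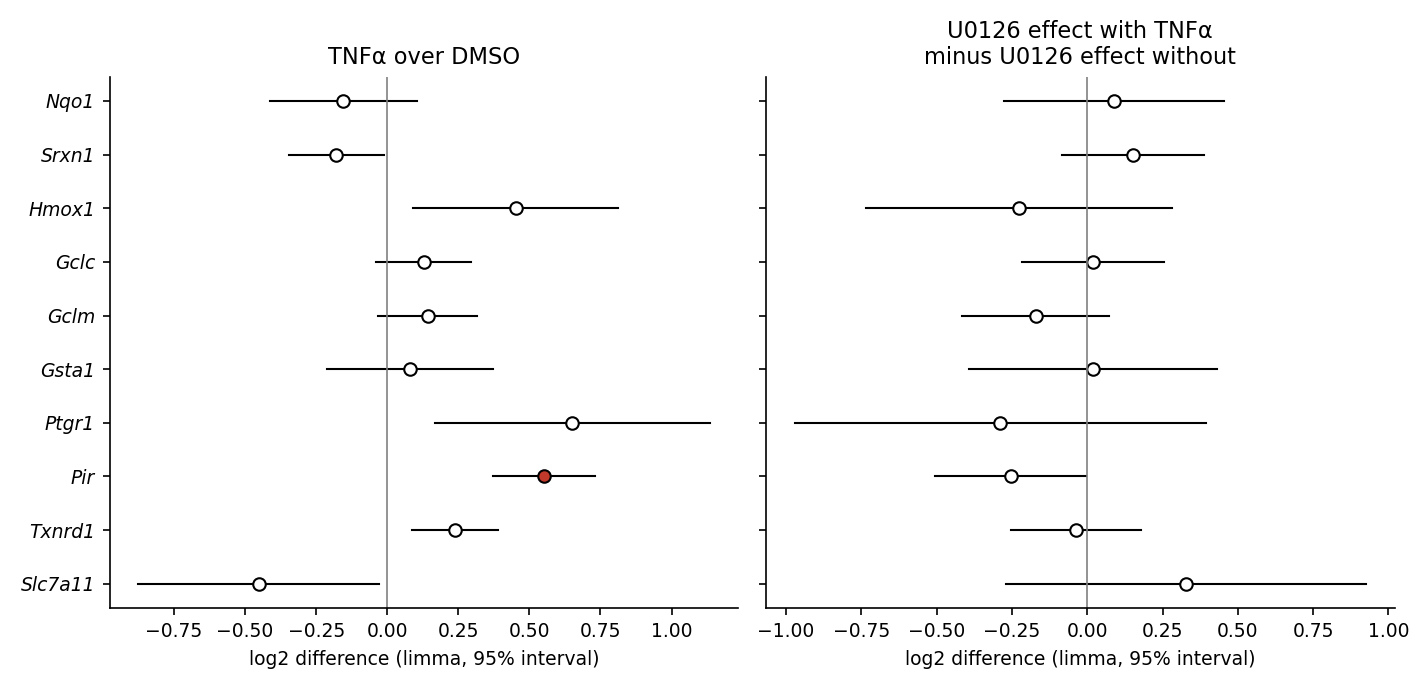
Log2 difference with its 95% limma interval for TNFα over DMSO (left) and for the U0126 effect with TNFα minus that without (right), filled where the adjusted p is under 0.05. Pir on the left is the 1 filled point, and on the right the intervals of 9 genes hold 0, while that of Pir ends just below it.

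Over all probe sets, the U0126 effects without and with TNFα are set side by side in the scatter of log2 folds. The 5th and 95th percentiles of all probe sets were -0.21 and 0.25 without TNFα, and -0.26 and 0.23 with it. All 10 genes lie above the 95th percentile without TNFα, with log2 folds from 0.32 for Slc7a11 upward. With TNFα, Gclm, at 0.23, lies marginally below it and the others lie above.

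**Figure D4:**
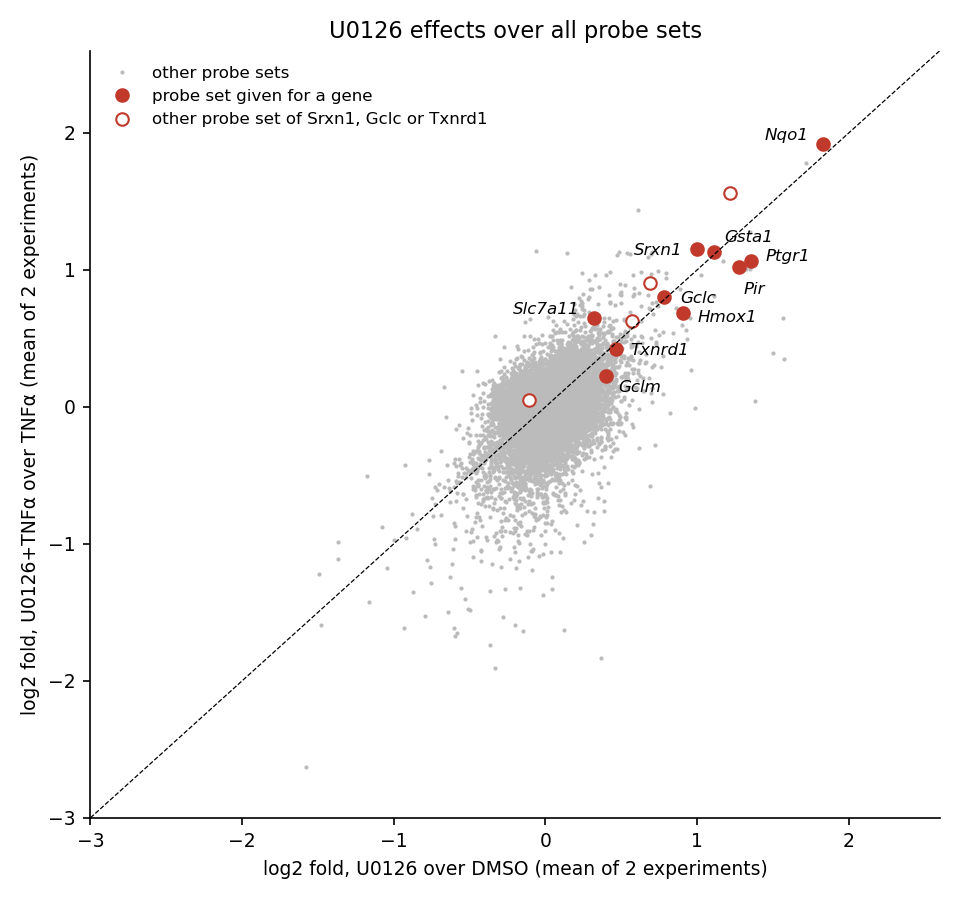
Log2 fold of U0126 over DMSO (x) against U0126+TNFα over TNFα (y) for each of 31042 probe sets, as means of 2 experiments, with the line of equal folds dashed. The 10 named genes lie near that line from Gclm to Nqo1, and the open circle near the origin is the dim remaining probe set of Srxn1.

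The 10 profiles were much alike over the 8 arrays, after the mean of each experiment was removed. U0126 over DMSO, which helped choose the genes, is part of these profiles, so likeness was built in and no result is read from it. The Pearson correlations of the 45 pairs ran from 0.401 to 0.996 with a median of 0.905, a description over 8 arrays that share treatments and experiments. The lowest values all involve Slc7a11, whose median correlation with the others was 0.609, and the lowest of these were with Hmox1 and Ptgr1, at 0.401 and 0.409. Pir had the highest median, 0.956, followed by Gclc at 0.950.

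Outside the list, the single-gene probe sets most like the mean profile of the 10, among 1602 probe sets whose treatment means span the fold threshold, were those of Sord (r = 0.988 over 8 arrays), Htatip2 (0.982), Ahrr (0.981), Pcp4l1 (0.971), Tiparp (0.969 and 0.966 for its 2 probe sets), Pak3 (0.965), Sema3b (0.964), Scly (0.956) and Lrp4 (0.956). Sord encodes sorbitol dehydrogenase, Ahrr the repressor of AhR and Scly selenocysteine lyase. For Nqo1 alone the nearest were Ahrr and Tiparp, both at 0.995, then Uchl1 (0.989) and 2 probe sets of Hspb8 (0.987 and 0.983). For Hmox1 they were Pgd (0.992), which supplies NADPH, Slc48a1 (0.989), which carries haem, Manba (0.967), Cyp1b1 (0.963) and Sqstm1 (0.953), whose product binds KEAP1.

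The AhR targets are given beside these genes because Nqo1 belongs to both groups. This list was also fixed with earlier results of these data known. The calls and shares below are thus a description, and nothing is read from them. Of 9 measured AhR targets other than Nqo1, 5 passed as higher with U0126 over DMSO (Ahrr, Tiparp, Aldh3a1, Cyp1a1 and Cyp1b1), where limma called 0.058% of all probe sets. With TNFα present 2 of the 9 passed, where 0.129% of all probe sets were higher, Ahrr at 3.06-fold and 3.85-fold (limma adjusted p = 0.00842) and Tiparp at 1.90-fold and 2.00-fold (adjusted p = 0.0110). Cyp1b1, at 2.10-fold and 1.91-fold, lay just outside the threshold (adjusted p = 0.0522). Aldh3a1 was at 1.36-fold and 1.27-fold there, after 2.65-fold and 3.03-fold without TNFα, and the difference of its effects was not called. The median log2 fold of the 9 was 1.03 without TNFα and 0.40 with it. With U0126+TNFα over U0126, 1 of the 9 passed as lower, where limma called 384 of 31042 probe sets in either direction. The part of the AhR targets in the values of the 10 genes was not tested.

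Of the other genes of the pathway, 151 of 160 listed were measured, and U0126 moved none of them past the limma test. For U0126 over DMSO 0 of 151 passed, and 32 had an unadjusted p under 0.05, a larger share than the 13.3% of all probe sets. For U0126+TNFα over TNFα 0 of 151 passed, where limma called 0.129% of all probe sets as higher and 0.126% as lower. There 50 of the 151 had an unadjusted p under 0.05, in either direction, a larger share than the 12.7% of all probe sets. By the fold rule 1 of the 151 was higher for U0126 over DMSO, Slc48a1 at 1.66-fold and 1.68-fold. For U0126+TNFα over TNFα 0 were higher and 2 lower, Hpx at 0.689-fold and 0.651-fold and Sod2 at 0.577-fold and 0.645-fold, where 0.506% of all probe sets were lower. The median log2 fold of the 151 was 0.09 without TNFα and 0.07 with it.

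The transcripts of the factors themselves were not called. Nfe2l2, the gene of NRF2, was 1.08-fold and 1.29-fold with U0126 and 0.873-fold and 1.16-fold with U0126+TNFα over TNFα (limma adjusted p = 0.978). Keap1 was at 1.06-fold and 1.09-fold, and at 1.04-fold in both experiments with TNFα. Bach1 was at 0.868-fold and 0.863-fold without TNFα, and at 0.967-fold and 1.20-fold with it. None of the 12 genes for NRF2 and its regulators passed in limma in any comparison. An unadjusted p under 0.05 was found for 4 of the 12 with U0126 over DMSO and for 3 with U0126+TNFα over TNFα. These are larger shares than the 13.3% and 12.7% of all probe sets. Sqstm1 was among them in both, at 1.257-fold and 1.265-fold and at 1.19-fold and 1.36-fold. TNFα over DMSO gave 3, U0126+TNFα over U0126 0 and the difference 1, where 25.9%, 12.5% and 9.13% of all probe sets had one. By the fold rule Maff alone was higher with TNFα over DMSO, at 4.96-fold and 1.49-fold, where 2.02% of all probe sets changed. These are transcript levels, and the amount and location of NRF2 protein were not measured on the arrays.

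Of the 151, the gene nearest to the threshold with U0126+TNFα over TNFα was Nqo2, a quinone reductase, which lay lower at 0.728-fold and 0.644-fold (limma adjusted p = 0.0695). Above TNFα, Me1, which supplies NADPH, stood at 1.50-fold and 1.44-fold (adjusted p = 0.0881) and Osgin1, an NRF2 target of growth control, at 1.58-fold and 1.33-fold (0.0837). Slc48a1 was at 1.38-fold and 2.01-fold (0.117), Gstp1, a glutathione transferase, at 1.64-fold and 1.28-fold (0.112), and Gsr, glutathione reductase, at 1.31-fold and 1.50-fold (0.121). None of these passed. By group, the median log2 fold was 0.22 for 10 genes of NADPH supply, 0.33 for 20 ATF4 targets and 0.12 for 10 genes of haem and iron. It was 0.08 for 19 glutathione transferases, 0.07 for 22 genes of the glutathione system and 0.00 for 16 genes of thioredoxin and peroxiredoxin. The medians were 0.05 for 27 genes of quinone, carbonyl and phase II metabolism, 0.04 for 12 genes of NRF2 and its regulators and 0.01 for 15 genes of superoxide and catalase.

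**Figure D5:**
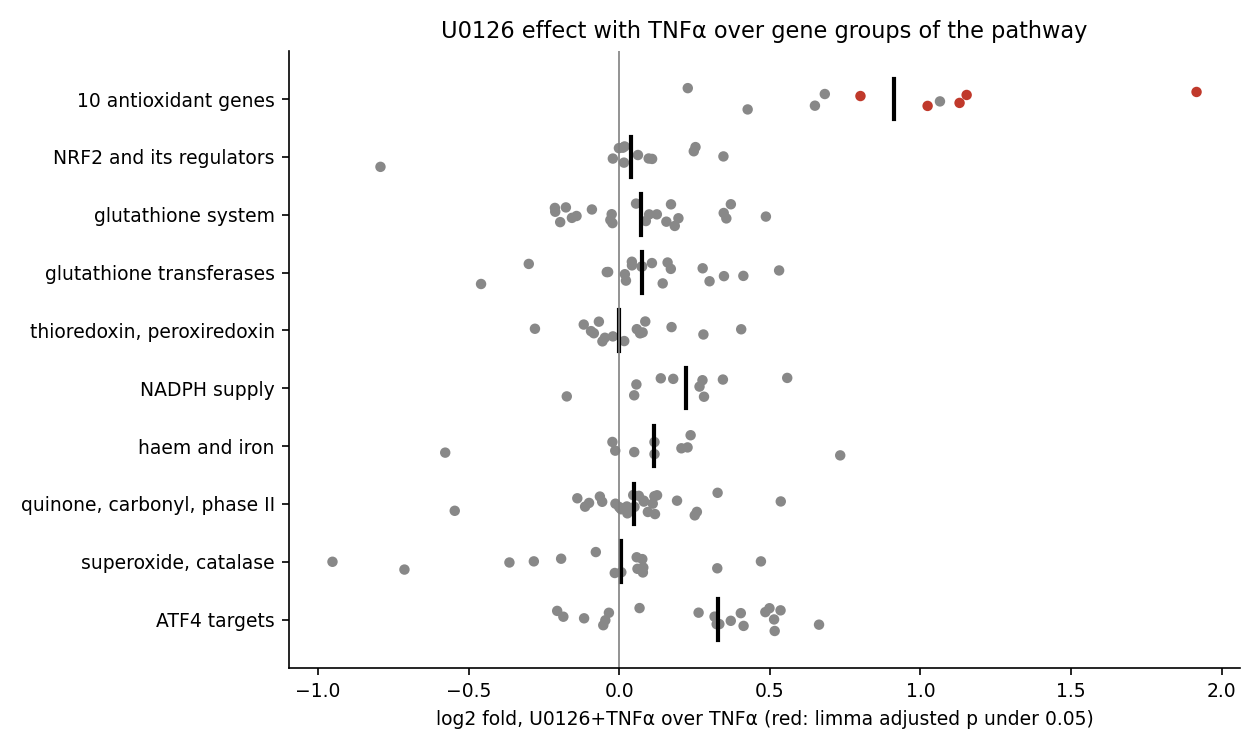
Log2 fold of U0126+TNFα over TNFα for the genes of each pathway group, with black bars for group medians and red for a limma adjusted p under 0.05, heights within a row being arbitrary. The red points are 5 of the 10 named genes, among them Nqo1 and Srxn1, whose high values were known beforehand, and 0 of the 151 others passed.

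Several list checks bear on the cells and the inhibitor. Summed intensities of 10 chondrocyte markers were 134100 to 202900 under DMSO, 147800 to 212400 under U0126, 104200 to 157500 with TNFα and 134600 to 200000 with both. Acan and Cnmd, 2 of the 10, passed as higher with U0126+TNFα over TNFα (log2 0.68 and 0.79), where 0.129% of all probe sets did, and 6 of the 10 passed as lower with TNFα over DMSO, where 1.78% did. The sums of 14 macrophage markers were 4179 to 5805, 4185 to 5297, 4853 to 6081 and 4019 to 5081 in the same order. Of these 14, 1, Cd68, passed as higher with TNFα over DMSO, where 3.41% of all probe sets did. No intensity in the table is 0. Of 17 genes that ERK is known to induce, 1, Egr2, passed as lower with U0126+TNFα over TNFα (log2 -0.78), where 0.126% of all probe sets did. By the fold rule 5 of the 17 were lower there, where 0.506% of all probe sets were. For U0126 over DMSO 0 of the 17 passed, and 10 had an unadjusted p under 0.05, against 13.3% of all probe sets. U0126 alone left Egr1 at 0.354 and 0.357 times its DMSO level without passing (limma adjusted p = 0.053). The part of these values in those of the 10 genes was not tested.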

How the data were processed

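RNA of 8 chondrocyte cultures was measured on single-colour arrays, 1 for each of 4 treatments in 2 experiments. The deposited values are linear intensities, 1 per probe set and array, and the submitters' processing notes name RMA, with no version. The methods describe division by the array median and by DMSO, which the deposited values do not carry (array medians 365.1 to 378.2). Here log2 values were centred on each array's median and 57 control probe sets left out. Of the rest, 20826 had 1 gene symbol in the platform annotation, 436 several and 9780 none. Where a gene has several probe sets, the one highest in mean log2 value stands for it. No detection calls were used, no filter on low values was applied, so that all 14 probe sets of the 10 genes were tested, and the number of arrays limits precision.

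All arrays entered 1 limma fit (limma 3.58.1, R 4.3.3) with treatment and experiment as terms (residual degrees of freedom 3, prior 3.913), with Benjamini-Hochberg adjustment over 31042 probe sets. The labels number the replicates, and the methods set each array against DMSO of its own experiment. As a check of the pairing, deviations of same-numbered arrays correlated at 0.728 to 0.829. With the experiment as a term, a shift shared by all arrays of 1 experiment is removed. The p-values rest on how far treatment effects differed between the 2 experiments, pooled over the 4 treatments and moderated over all probe sets.

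The members, gene lists and rules were chosen with earlier results of these data known. Beside the members, up to 4 genes of each list with the smallest adjusted p in either U0126 comparison were open to naming, with Nfe2l2, Keap1 and Bach1. The nearest patterns were ranked by Pearson correlation. Genes named for TNFα over DMSO in the other lists, and Gsta5 and Gsta2, were chosen after their values were seen. Alternatives were no centring, quantile normalization, a filter that drops the dimmest 40 percent of probe sets, a trend or robust prior, only the arrays compared, no replicate block, leaving out each array, each experiment alone, all probe sets of a gene, and fold thresholds of 1.3 and 2. Python 3.11.15 with numpy 2.4.6, pandas 2.3.3 and matplotlib 3.10.9 made tables and figures. The fit was also run on simulated data that followed its own model, which cannot show how calls behave with 2 real experiments. Other assays of the study were not analysed here.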

Additional observations from a re-analysis of the deposited data

How the results depend on the processing

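No called fold of the 10 genes changed direction, but 2 folds for TNFα over DMSO that were not called did. Nqo1, at -0.15 on the log2 scale, ran from -0.352 to 0.0434 with 1 array left out and turned without DMSO replicate 2. Gsta1, at 0.08, was at -0.00088 with quantile normalization and ran from -0.0587 to 0.219 with 1 array left out, turning without DMSO replicate 1 and without TNFα replicate 2 (-0.0431). The calls among the 10 genes depended on the block and on single arrays. With no replicate block, U0126+TNFα over TNFα gave 0 calls in place of 5, TNFα over DMSO 0 in place of 1, and the 151 other pathway genes 1 in place of 11 for TNFα over DMSO and 0 in place of 3 for U0126+TNFα over U0126. The block changed no other of these counts. With 1 array left out, where the lone array is assumed to vary like the others, the calls among the 10 ran from 0 to 5 for U0126+TNFα over TNFα and from 0 to 3 for TNFα over DMSO, and those among the other pathway genes from 0 to 3, from 5 to 18 and from 0 to 6 for these and for U0126+TNFα over U0126. With only the arrays compared, TNFα over DMSO gave 0 calls among the 10, and the other pathway genes gave 1 for U0126 over DMSO, 6 for U0126+TNFα over TNFα, 4 for TNFα over DMSO and 11 for U0126+TNFα over U0126. A trend in the prior gave 1 for U0126+TNFα over TNFα. The cause was not tested. Among all probe sets, that comparison gave 79 calls, 291 with only the arrays compared and 0 with no replicate block. The median U0126 effect of the 10 without TNFα, 0.95, was 0.91 after quantile normalization, 0.91 in experiment 2 alone and 0.82 with all probe sets of a gene averaged. The fold rule at a threshold of 2 left 3 of the 10 genes without TNFα and 2 with it. For TNFα over DMSO it gave 1 gene at a threshold of 1.3, 2 by the mean fold, 3 in experiment 1 and 1 in experiment 2, and for U0126+TNFα over U0126 it gave 1 in experiment 1. Signal over background was not known for any array.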

Other observations

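TNFα over DMSO changed several oxidant-handling genes outside the 10 described above. Of the 151 other pathway genes, 9 passed as higher and 2 as lower in limma, where 3.41% of all probe sets were higher and 1.78% lower. Sod2, the mitochondrial superoxide dismutase, was raised 6.88-fold and 3.58-fold (log2 2.31, adjusted p = 0.00569), and Cyba, a subunit of the NADPH oxidases, 2.15-fold and 2.01-fold (adjusted p = 0.000932). Nqo2, a quinone reductase related to Nqo1, was at 1.95-fold and 2.15-fold (adjusted p = 0.0020), while Nqo1 itself was not called. Values of the haem binder Hpx were 2.42-fold and 1.59-fold (adjusted p = 0.0203). The exporter Abcc4 stood at 1.56-fold and 2.36-fold (adjusted p = 0.0166). The iron importer Slc11a2 rose 1.56-fold and 1.63-fold (adjusted p = 0.00825), and the iron exporter Slc40a1 fell, at 0.458-fold and 0.725-fold (adjusted p = 0.0439).

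With U0126 present, 3 of the 151 passed as higher for added TNFα, where 0.831% of all probe sets did, Sod2 at 4.63-fold and 2.52-fold, Cyba at 1.49-fold and 1.61-fold and Slc11a2 at 1.76-fold and 1.42-fold (adjusted p = 0.0289, 0.0110 and 0.0184). The difference of the U0126 effects was called for 0 of the 151, and limma gave 11 of them an unadjusted p under 0.05, as it did 9.13% of all probe sets. Nqo2 and Cyba lay lower with U0126+TNFα than with TNFα in both experiments, at 0.728-fold and 0.644-fold and at 0.728-fold and 0.829-fold, without passing (adjusted p = 0.0695 and 0.0994). The 20 ATF4 targets, to which Slc7a11 is also known to belong, had a median log2 fold of 0.19 for U0126 over DMSO and 0.33 for U0126+TNFα over TNFα, with 1 and 9 genes at an unadjusted p under 0.05, where 13.3% and 12.7% of all probe sets were, and 0 called in each.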
